A study of Mus musculus with 12 samples.

Results

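Fatty acid and triglyceride synthesis in the liver was followed through 34 genes, taken by symbol from a table of 13304 genes. They encode the enzymes from citrate export to the last acylation of triglyceride, together with 4 regulators of those enzymes. All 34 were measured in every library. The livers came from 7 WT and 5 Maf1-/- C57Bl/6J mice aged 12 to 14 weeks and kept on chow. All mice, WT included, had been fasted overnight and refed for 4 h, so neither group carried a treatment that the other lacked. Maf1 encodes a repressor of RNA polymerase III and is missing from the whole animal in Maf1-/- mice, in liver and in every other tissue. Each library holds total RNA of 1 PBS-perfused liver, made with a kit that depletes ribosomal and globin RNA.

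In a refed animal, glucose taken up by hepatocytes is turned into citrate, which leaves the mitochondrion and is cleaved to cytosolic acetyl-CoA. Acetyl-CoA carboxylase makes malonyl-CoA from it, fatty acid synthase builds palmitate, and elongases and desaturases shape the chain before it is joined to glycerol 3-phosphate. Insulin acting through SREBP-1c and glucose acting through ChREBP are the known switches of these genes on refeeding.

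The genes whose start regions are shown are Fasn, the enzyme of chain synthesis, and 3 of the 5 members whose level followed that of Fasn most closely across the livers (Mid1ip1, Mlxipl and Thrsp, with values further on). Each run is the 250 bases before the RefSeq start (GRCm38.p6, the build of the deposited table), 5′ to 3′ on the gene's strand. Capitals mark matches on either strand to the CCAAT box (CCAAT), the GC box (GGGCGG) and the E-box (CACGTG). The windows lie at chr11:120824548-120824797 (minus strand) for Fasn, chrX:10717115-10717364 (plus) for Mid1ip1, chr5:135089640-135089889 (plus, the upstream one of the Mlxipl starts) and chr7:97417551-97417800 (minus) for Thrsp.
Fasn: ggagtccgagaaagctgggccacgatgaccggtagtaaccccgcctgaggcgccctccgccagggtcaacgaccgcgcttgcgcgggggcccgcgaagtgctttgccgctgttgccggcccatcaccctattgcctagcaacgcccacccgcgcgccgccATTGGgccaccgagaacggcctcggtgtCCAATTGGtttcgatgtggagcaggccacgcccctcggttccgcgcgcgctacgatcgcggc
Mid1ip1: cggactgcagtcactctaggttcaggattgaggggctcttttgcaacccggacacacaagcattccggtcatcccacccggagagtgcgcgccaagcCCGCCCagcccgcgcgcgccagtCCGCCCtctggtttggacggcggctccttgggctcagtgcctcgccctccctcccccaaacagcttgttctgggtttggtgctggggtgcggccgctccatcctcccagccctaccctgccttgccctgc
Mlxipl: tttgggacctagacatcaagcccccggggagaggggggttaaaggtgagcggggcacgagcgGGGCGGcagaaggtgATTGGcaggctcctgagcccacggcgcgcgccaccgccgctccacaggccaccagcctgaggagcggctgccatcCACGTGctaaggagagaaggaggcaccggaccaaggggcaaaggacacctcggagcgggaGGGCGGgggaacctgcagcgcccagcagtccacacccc
Thrsp: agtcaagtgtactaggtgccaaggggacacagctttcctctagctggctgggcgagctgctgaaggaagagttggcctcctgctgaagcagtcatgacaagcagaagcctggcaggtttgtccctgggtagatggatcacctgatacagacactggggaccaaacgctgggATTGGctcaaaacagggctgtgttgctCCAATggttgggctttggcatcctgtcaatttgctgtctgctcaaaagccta

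In the Fasn window there were 3 CCAAT matches, beginning 90, 62 and 59 bases before the start, and the last 2 overlap head to head in the run CCAATTGG. Thrsp had 2 CCAAT matches, 79 and 52 bases before the start, Mid1ip1 had 2 GC boxes and no CCAAT, and Mlxipl had 1 CCAAT, 2 GC boxes and an E-box. Lpin1 and Acacb, also among the 5 members most like Fasn, had windows that are not shown. These held 0 matches for Lpin1 and 1 CCAAT match for Acacb. A window was found for 28 of the 34 members, some of which have several starts, which gave 38 windows. CCAAT was found in 20 of these 38 windows and in 33.8% of all 32851 mouse windows, the GC box in 22 of 38 against 32.7%, and the E-box in 5 of 38 against 6.02%. The sterol regulatory element searched as TCACNCCAC was found in 2 of 38, one each at Acsl1 and the downstream start of Mlxipl, against 1.05% of all windows. Such matches describe letters and not binding.

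The libraries held 35003720 to 55787438 reads in WT and 34709661 to 41931441 in Maf1-/- livers over the genes of the table. Maf1 itself had 254 to 534 reads in WT and 5 to 52 in Maf1-/- livers, which matches the labels of all 12 libraries. All 8 hepatocyte markers were measured, with a summed level of 112044 to 143609 CPM (counts scaled to library size) in WT and 119662 to 158117 in Maf1-/-. Of 7 adipocyte markers 3 were measured (Cfd, Fabp4 and Car3), with sums of 625.3 to 2189 and 1463 to 2006 that are mostly Car3. Over all cell types 33 of 41 listed markers were measured and 0 passed the test used for the members. At an unadjusted p under 0.05, 4 had the lower mean in Maf1-/- (log2 fold changes of −2.18 for Cfd, −0.68 for Cela1, −0.67 for Sox9 and −0.31 for Alas2) and 2 the higher (0.62 for Dcn and 0.58 for Cps1). Their part in the members' values was not tested. One library, WT 2, stood apart: relative to the mean of all livers its GC-rich genes ran low (slope −0.57 log2 units per 10 points of GC), whereas the remaining WT slopes lay between 0.14 and 0.35 and the Maf1-/- slopes between −0.54 and 0.08. For several members the value without it is given as well. With WT 2 left out, the GC slopes of the groups do not overlap. In those values genotype and GC slope therefore cannot be told apart. Since these are bulk samples, fewer cells of a type and less RNA per cell cannot be told apart.

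No member passed the test of Maf1-/- against WT, where passing takes both an adjusted p under 0.01 (limma, Benjamini-Hochberg over all genes) and a log2 fold change beyond 0.5 in size. Of all genes, 0.015% passed, 0.00752% in each direction. At an unadjusted p under 0.05 there were 7 of the 34 members (20.6%), below the share of 23.1% over all genes (13.2% lower and 9.9% higher). Of these 7, Acacb, Agpat3, Elovl3, Hsd17b12, Scd2 and Slc25a1 had the lower mean in Maf1-/- and Acsl3 the higher. The median log2 fold change of the members was −0.09, with 23 of 34 below 0, beside −0.02 and 52.9% below 0 over all genes. WT and Maf1-/- values overlapped for every member, while 0.586% of all genes had no overlap. Without WT 2, Agpat3 passed (6.79% of all genes then did), and 13 of the 34 members had an unadjusted p under 0.05, against 43.5% of all genes. With 1 residual factor in the fit 2 members passed (8.09% of all genes), and with library weights 5 did (15.2% of all genes).

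**Figure D1:**
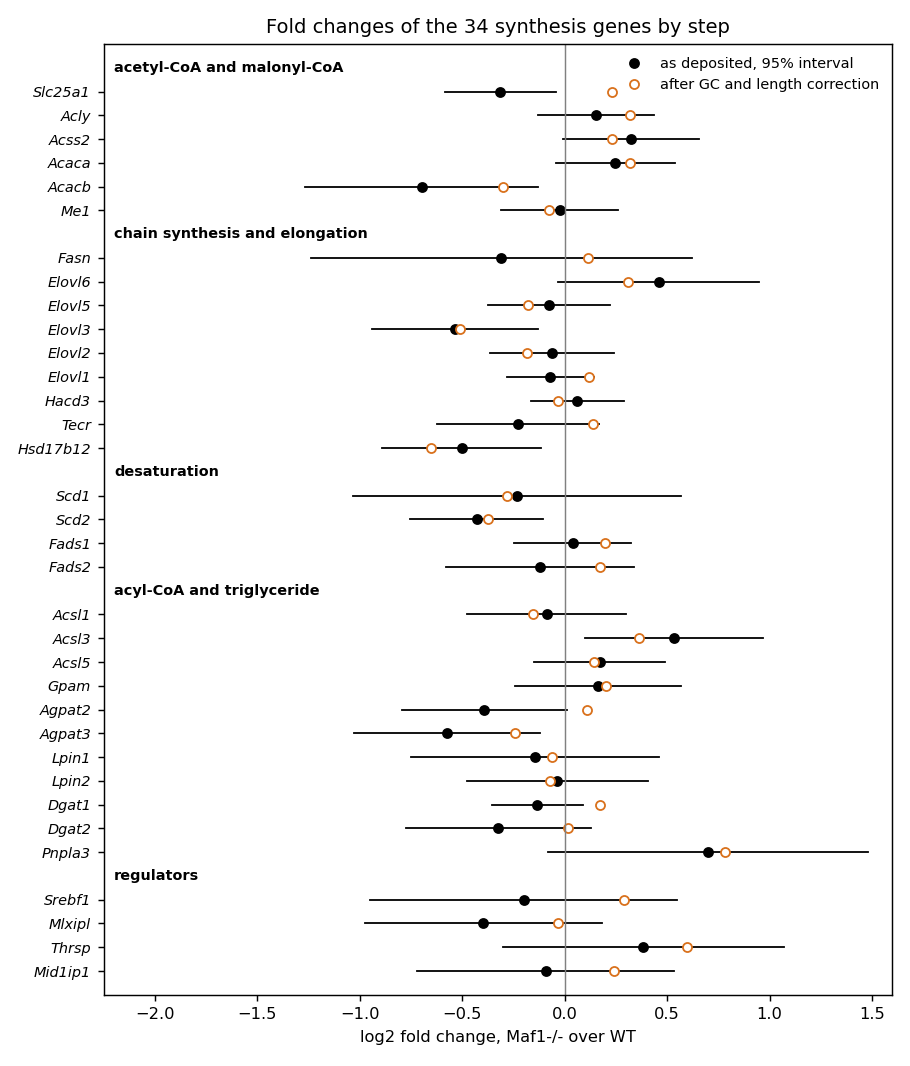
Log2 fold change (Maf1-/- over WT) of the 34 genes, grouped by step. Black points and lines are limma estimates with 95% intervals (n = 7 and 5), and open circles are the estimates with the dependence on GC content and gene length taken out of each library. Most intervals cross 0, and several points at negative values, among them Slc25a1 and Agpat2, have circles above 0.

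Per kilobase of exon, the members spanned a wide range in WT liver. Scd1 stood highest, at 1068 ± 461 CPM per kb (SD, n = 7). By its mean log2 level per kb over all 12 libraries it ranked 57th of the 12482 genes with an exon length. Elovl5 (248 ± 38.8), Elovl2 (209 ± 32.2), Acsl1 (203 ± 40.0) and Fads2 (178 ± 73.0) came next, and neighbours among these 4 differed by no more than about 1 SD. The enzymes of chain synthesis itself were lower: Acly (38.6 ± 6.87), Fasn (34.3 ± 14.5) and Acaca (6.88 ± 0.969). Scd2 (1.58 ± 0.239) and Pnpla3 (0.107 ± 0.056) closed the order, Pnpla3 with only 6 to 45 reads per library. In Maf1-/- liver Scd1 was again the highest, at 953 ± 552, and Pnpla3 the lowest, at 0.157 ± 0.0404 (SD, n = 5).

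Cytosolic acetyl-CoA comes from citrate, carried out of the mitochondrion by Slc25a1 and cleaved by Acly, or from acetate through Acss2. The values from here on are log2 CPM, not divided by gene length. Slc25a1 ran from 6.72 to 7.19 in WT (median 6.93) and was 6.75, 6.64, 6.51, 6.24 and 6.88 in the Maf1-/- livers 1 to 5. All 5 Maf1-/- values lay below the WT median and 3 of them below every WT liver, and the log2 fold change was −0.31 ± 0.12 (SE; adjusted p = 0.196; exact p = 0.0189 for this gene alone over 792 divisions of the libraries). After correction for GC content and length it was 0.23, on the other side of 0. Slc25a1 has the highest GC content of the members, 60.6%.

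Acly ran from 7.43 to 8.06 in WT (median 7.54) and was 7.78, 8.02, 7.68, 7.62 and 7.95 in Maf1-/-. Its 5 Maf1-/- values were all above the WT median, though the highest value of all was in WT 1, with a fold change of 0.15 ± 0.13 on the log2 scale (SE; adjusted p = 0.444). Acss2 was 6.25 to 6.90 in WT (median 6.56) and 7.05, 6.81, 7.00, 6.46 and 7.25 in Maf1-/-. In Maf1-/-, 3 livers exceeded every WT value, and the log2 fold change was 0.32 ± 0.15 (SE; adjusted p = 0.222). Me1, the malic enzyme that supplies NADPH for chain synthesis, had a log2 fold change of −0.02 ± 0.13.

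The acetyl-CoA carboxylases Acaca and Acacb make malonyl-CoA. Acaca encodes the cytosolic enzyme, whose product feeds synthesis, and Acacb the one at the mitochondrial surface, whose product restrains fatty acid import. Acaca ran from 5.88 to 6.39 in WT (median 6.19) and was 6.54, 6.46, 6.52, 5.95 and 6.35 in Maf1-/-, with 3 of the 5 above every WT value, and the fold change on the log2 scale was 0.25 ± 0.13 (SE; adjusted p = 0.257). Acacb ran from 4.37 to 5.67 in WT (median 5.50) and was 4.85, 5.13, 4.59, 3.73 and 4.83 in Maf1-/-. Here 6 WT livers lay above all 5 Maf1-/- livers and only WT 2, at 4.37, fell among them. Acacb thus had a log2 fold change of −0.70 ± 0.26 (SE), a mean 1.62-fold below WT (adjusted p = 0.194, exact p = 0.0366). It was −0.86 without WT 2 (adjusted p = 0.0146) and −0.30 after the GC and length correction (adjusted p = 0.243).

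The Acaca to Acacb ratio within a liver set the groups further apart than either gene. This and 12 further ratios were picked after values had been seen and carry no test. As a log2 difference it was 0.79 ± 0.56 in WT (SD, n = 7) and 1.74 ± 0.35 in Maf1-/- (SD, n = 5), a gap of 0.95. The WT values other than WT 2 ended below the lowest Maf1-/- value of 1.33, and WT 2 was at 2.03. After the GC and length correction the gap was 0.62, and the ranges overlapped, 0.64 to 1.55 in WT and 1.33 to 1.70 in Maf1-/-.

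Fasn, which builds palmitate, was among the most variable of all members. It ran from 7.37 to 8.98 in WT (median 8.34) and was 8.52, 8.91, 7.99, 6.27 and 8.14 in Maf1-/-. The groups overlapped over nearly their whole ranges, with Maf1-/- 4 alone below every WT liver. Fasn had a log2 fold change of −0.31 ± 0.43 (SE; 95% interval −1.24 to 0.62; adjusted p = 0.645). Without Maf1-/- 4 it was 0.11, and after the GC and length correction also 0.11. The spread of Fasn within groups, an SD of 0.82, exceeded that of 95.9% of all genes.

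**Figure D2:**
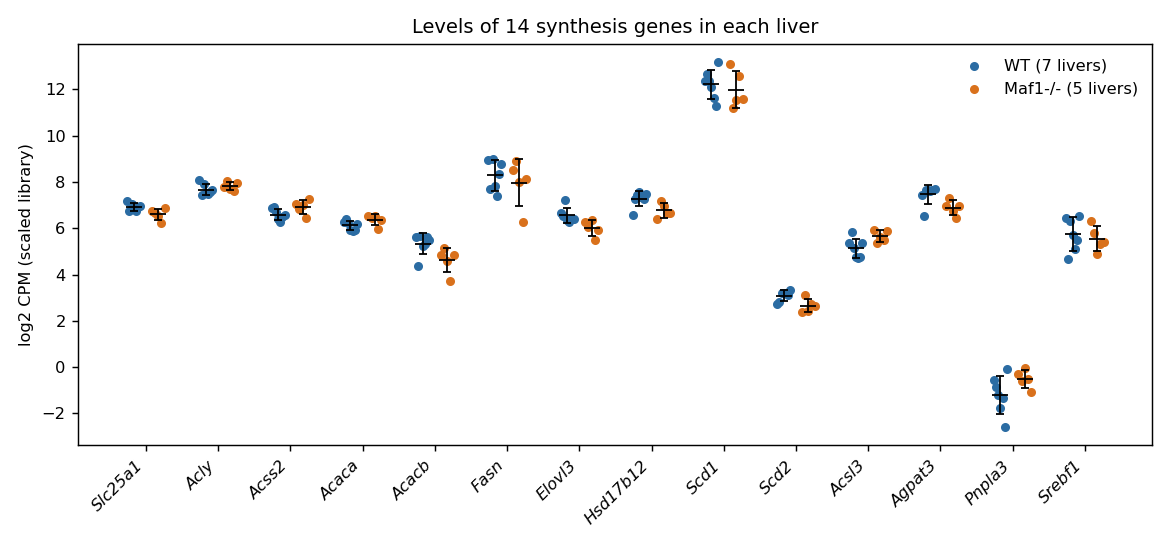
Log2 CPM in each liver for 14 genes, WT in blue (7 livers) and Maf1-/- in orange (5 livers), with horizontal bars at the group mean and whiskers of 1 SD. The groups overlap for every gene, and Fasn, Scd1, Srebf1 and Pnpla3 show the widest scatter.

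Elongases add carbon pairs to the chain, each with its own preferred substrates. Elovl3, which in mouse makes very long saturated and monounsaturated chains, ran from 6.26 to 7.23 in WT (median 6.42) and was 6.29, 6.05, 6.35, 5.48 and 5.92 in Maf1-/-. Of the Maf1-/- livers, 3 lay below every WT liver, and the highest WT value, in WT 3, stood clear of the others. This gave a log2 fold change of −0.53 ± 0.19 (SE), a mean 1.45-fold below WT (adjusted p = 0.192, exact p = 0.00758). It was −0.54 without WT 2 and −0.51 after the GC and length correction. Elovl6, which takes palmitate to stearate, had a mean above WT, by 0.46 ± 0.23 log2 units (SE; adjusted p = 0.231), and all 5 Maf1-/- values above the WT median of 6.94. The WT range of 6.51 to 7.75 held 4 of them, and Maf1-/- 3 was above it at 7.92. Without WT 2 the difference was 0.58 (adjusted p = 0.0492).

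The log2 ratio of Elovl6 to Elovl3 was −0.14 to 1.21 in WT and 1.22 to 1.86 in Maf1-/- livers, a gap of 0.99 between means of 0.50 ± 0.47 (SD, n = 7) and 1.49 ± 0.27 (SD, n = 5). It was the only one of the 13 picked ratios without overlap (7.69% of them), and the distance between the nearest livers was small. Ratios of other gene pairs were not computed, so no share over all genes stands beside it. With the GC and length correction the gap was 0.82, with WT at −0.03 to 1.14 and Maf1-/- at 1.17 to 1.74. Leaving out each library in turn gave gaps of 0.89 to 1.11.

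**Figure D3:**
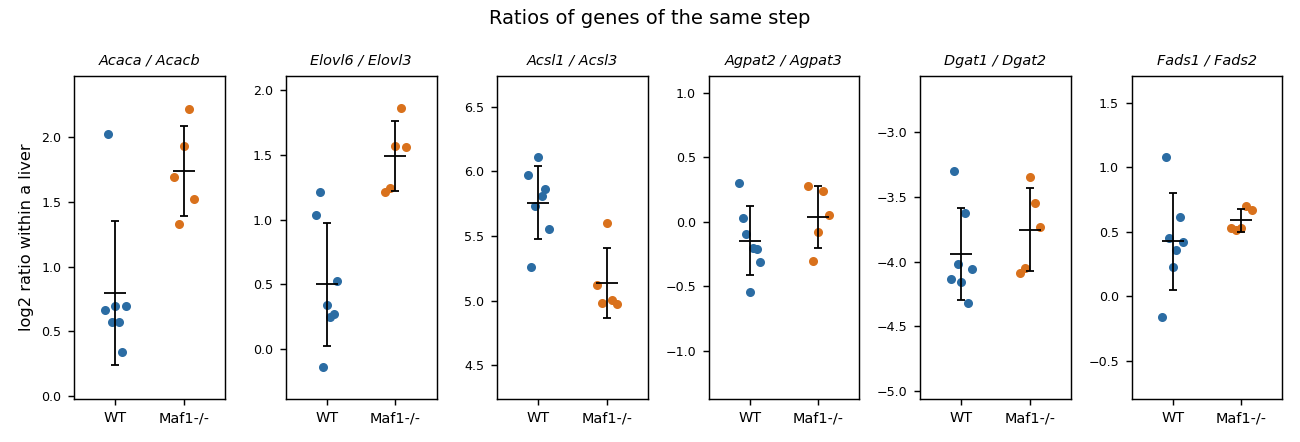
Log2 ratio of 2 genes of the same step within each liver, WT in blue (7 livers) and Maf1-/- in orange (5 livers), with the mean and 1 SD; all panels span the same 2.5 log2 units. Elovl6 over Elovl3 separates the groups without overlap, while Acaca over Acacb does so except for WT 2 at 2.03.

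The other elongases were close to WT. The log2 fold change was −0.08 ± 0.14 (SE) for Elovl5 and −0.06 ± 0.14 for Elovl2, which act on polyunsaturated chains, and −0.07 ± 0.10 for Elovl1. Each elongation round is completed by a dehydratase (Hacd3), enoyl reductase (Tecr) and ketoreductase (Hsd17b12). Hacd3 was at 0.06 ± 0.11 and Tecr at −0.23 ± 0.18. Hsd17b12 ran from 6.57 to 7.57 in WT (median 7.36) and was 6.40, 7.19, 6.94, 6.64 and 6.65 in Maf1-/-. All Maf1-/- values lay under the WT median, and the low WT value was in WT 1. For Hsd17b12 the log2 fold change was −0.50 ± 0.18 (SE; adjusted p = 0.192, exact p = 0.0328), and −0.65 after the GC and length correction (adjusted p = 0.214). Its GC content, 44.2%, is among the lowest of the members.

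Desaturases place double bonds, Scd1 and Scd2 at the delta-9 position and Fads1 and Fads2 in polyunsaturated chains. Scd1, the main hepatic enzyme of the pair, ran from 11.30 to 13.17 in WT (median 12.34) and was 13.08, 11.19, 11.53, 12.56 and 11.58 in Maf1-/-. High and low livers occurred in both groups, with a log2 fold change of −0.23 ± 0.37 (SE; 95% interval −1.03 to 0.57; adjusted p = 0.691). Scd2, far lower than Scd1 per kilobase, ran from 2.73 to 3.34 in WT (median 3.20) and was 2.39, 3.12, 2.43, 2.71 and 2.65 in Maf1-/-. Of the Maf1-/- livers, 4 lay below the whole WT range and Maf1-/- 2 within it, with a log2 fold change of −0.43 ± 0.15 (SE), a mean 1.35-fold below WT (adjusted p = 0.192, exact p = 0.0152), and −0.38 after the GC and length correction. Fads1 was at 0.04 ± 0.13 and Fads2 at −0.12 ± 0.21.

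Free fatty acids are activated by acyl-CoA synthetases. Acsl3, which is known from cultured cells for its place on lipid droplets, ran from 4.70 to 5.82 in WT (median 5.16) and was 5.94, 5.36, 5.63, 5.48 and 5.90 in Maf1-/-. All 5 Maf1-/- values were above the WT median, and 2 of them above every WT liver, of which WT 2 was the highest. The log2 fold change was 0.53 ± 0.20 (SE), a mean 1.45-fold above WT (adjusted p = 0.194, exact p = 0.0341). It was 0.65 without WT 2 (adjusted p = 0.0167) and 0.36 after the GC and length correction (adjusted p = 0.308). Acsl1, the most abundant synthetase of the 3 per kilobase, was at −0.09 ± 0.18 and Acsl5 at 0.17 ± 0.15. The log2 ratio of Acsl1 to Acsl3 was 5.76 ± 0.28 in WT (SD, n = 7) and 5.14 ± 0.27 in Maf1-/- (SD, n = 5), with overlapping ranges.

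Assembly of triglyceride starts with Gpam, the mitochondrial glycerol-3-phosphate acyltransferase (0.16 ± 0.19), and goes on with the AGPAT acyltransferases, which make phosphatidic acid. Agpat3 ran from 6.54 to 7.69 in WT (median 7.64) and was 6.96, 7.32, 6.74, 6.43 and 6.98 in Maf1-/-. As with Acacb, 6 WT livers lay above all Maf1-/- livers and WT 2 among them. The log2 fold change was −0.58 ± 0.21 (SE), a mean 1.49-fold below WT (adjusted p = 0.192, exact p = 0.0366). Without WT 2 it was −0.73 and passed (adjusted p = 0.00713), and after the GC and length correction it was −0.24 (adjusted p = 0.239). Agpat2 was at −0.39 ± 0.19 (SE; adjusted p = 0.223), with all 5 Maf1-/- values below the WT median, at 0.11 after the correction and at −0.52 without WT 2 (adjusted p = 0.0187).

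Phosphatidic acid is dephosphorylated by lipins (Lpin1 at −0.14 ± 0.28 and Lpin2 at −0.04 ± 0.21) and the diacylglycerol acylated by Dgat1 or Dgat2. Dgat2, much the higher of the pair per kilobase (141 ± 34.1 against 6.54 ± 0.760 in WT), was at −0.32 ± 0.21 and Dgat1 at −0.13 ± 0.10 (SE). For both, all 5 Maf1-/- values lay below the WT median, and both were above 0 after the GC and length correction (0.02 and 0.17). Without WT 2, Dgat2 was at −0.48 (adjusted p = 0.0158). Pnpla3, a lipid droplet protein with known lipase activity, ran from −2.59 to −0.07 in WT (median −1.20) and was −0.28, −0.60, −0.03, −0.53 and −1.07 in Maf1-/-. It was above the WT median in 5 of 5 Maf1-/- livers, with a log2 fold change of 0.70 ± 0.36 (SE; 95% interval −0.08 to 1.48; adjusted p = 0.243). At its few reads the size depends on the scale, and with a pseudocount of 1 it was 0.22.

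Of the 4 regulators, Srebf1 encodes SREBP-1 and Mlxipl encodes ChREBP. Srebf1 ran from 4.66 to 6.52 in WT (median 5.71) and was 6.32, 5.81, 4.89, 5.33 and 5.39 in Maf1-/-, with WT 2 the lowest of all livers. The log2 fold change was −0.20 ± 0.35 (SE; 95% interval −0.95 to 0.55; adjusted p = 0.717), with 0.29 after the GC and length correction and −0.38 without WT 2 (adjusted p = 0.356). Mlxipl was at −0.40 ± 0.27 (adjusted p = 0.340), at −0.03 after the correction and at −0.54 without WT 2 (adjusted p = 0.0985). Thrsp, known as Spot 14, and its paralogue Mid1ip1, which binds acetyl-CoA carboxylase and promotes its polymerization, were at 0.38 ± 0.32 and −0.09 ± 0.29.

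The fold changes of the members followed their GC content. The slopes of the libraries on GC content were taken over all genes and not the members alone. They were −0.54 to 0.08 in Maf1-/- livers and 0.14 to 0.35 in WT livers other than WT 2 (−0.57). GC slope and genotype thus nearly went together, and their parts in the fold changes cannot be told apart. The share below 0 by GC class was computed for the members only. With no share over all genes beside them, the counts by class cannot be read as particular to the members. All 12 members above 55% GC, Fasn, Srebf1, Acacb and both Dgat genes among them, had a log2 fold change below 0, with a median of −0.31. Of the 6 members at 50 to 55%, 2 were below 0, and of the 16 under 50%, 9 were. After the trend on GC content and length had been taken out of each library, 3 of the 12 GC-rich members were below 0 and their median was 0.12. Over the 34 members, which share the same 12 libraries, the Spearman rho of fold change and GC content was −0.49 before the correction. With the correction the median of all members was 0.11, with 14 of 34 below 0 against 47.3% of all genes, 0 members passed (0.00801% of all genes did), and 7 members had an unadjusted p under 0.05 against 17.8% of all genes. Of those 7, Acacb, Agpat3, Elovl3, Hsd17b12 and Scd2 were lower in both analyses, and Acaca and Acly, both above WT, replaced Slc25a1 and Acsl3. In the corrected data Acly was at 0.32 (adjusted p = 0.227) and Acaca at 0.32 (adjusted p = 0.256).

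**Figure D4:**
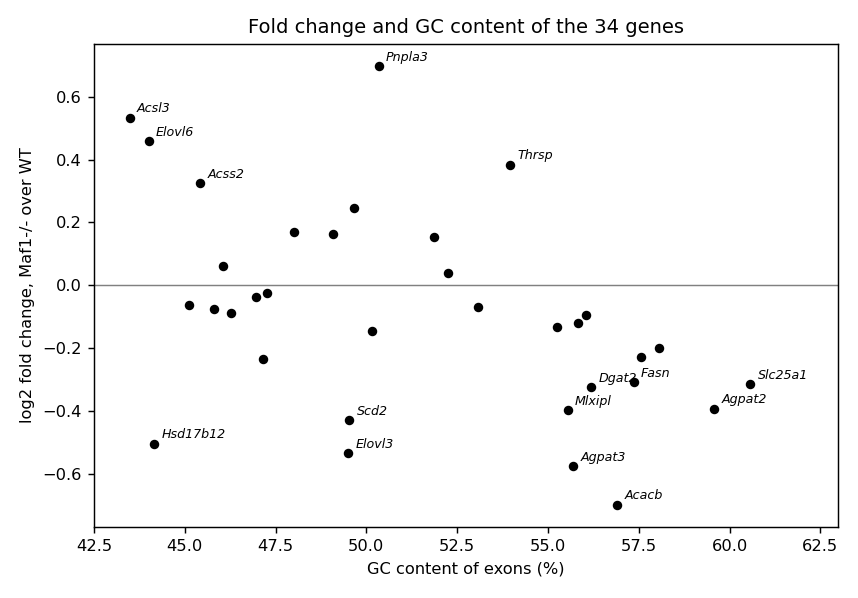
Log2 fold change (Maf1-/- over WT, y axis) against GC content of the exons in percent (x axis) for the 34 genes, with names where the fold change is beyond 0.3 in size. All 12 genes above 55% GC lie below 0, and the genes above 0.3 other than Pnpla3 and Thrsp lie below 46% GC.

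How the members varied from liver to liver was described by their correlation with Fasn over the 12 livers, each from 1 mouse (permutation tests with 100000 resamples, two-sided, adjusted over 33 members). Mid1ip1 was most alike, with r = 0.88 (permutation p = 1e-05, the smallest these permutations can give; adjusted p = 0.00033) and rho = 0.89 (permutation p = 0.00023, adjusted p = 0.00759). Mlxipl followed with r = 0.87 (permutation p = 0.00021, adjusted p = 0.00346) and rho = 0.84 (permutation p = 0.00094, adjusted p = 0.0155). Lpin1 had r = 0.78 and rho = 0.48, Acacb r = 0.77 and rho = 0.69, and Thrsp r = 0.76 and rho = 0.67. For these 3 the permutation p of r was 0.00595, 0.00457 and 0.00418, each with an adjusted p = 0.0327, and the permutation p of rho was 0.120, 0.0155 and 0.0206, with adjusted p of 0.283, 0.0970 and 0.0970. Slc25a1 (r = 0.75) and Gpam (r = 0.71) also had an adjusted permutation p of r under 0.05, which made 7 of 33. The correlation was not computed for genes outside the members, so no share over all genes stands beside this count.

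The likeness rested in part on single livers. Maf1-/- 4 and WT 5 were the livers farthest from the median of Fasn, at 6.27 and 7.37, and without them 0 of 33 correlations passed. Mid1ip1 and Mlxipl were then still at r = 0.86 and 0.81 (adjusted permutation p = 0.0511 and 0.0551), but Lpin1 fell to 0.19 and Thrsp to 0.48. Without WT 2, Mid1ip1 and Mlxipl alone passed. Within the groups, taken as deviations from each group mean, 10 of 33 passed, among them all 7 of the pooled data. The shuffles there ran across both groups and made no allowance for the fitted group means, so this count may be too high. After the GC and length correction 8 passed, and 5 of them, Gpam, Lpin1, Mlxipl, Thrsp and Mid1ip1, were shared with the first 7. Mid1ip1 was then at r = 0.80 and rho = 0.62, and Mlxipl at r = 0.76 and rho = 0.62. Acacb then fell to r = 0.38 and Slc25a1 to r = 0.19, while Acss2, Elovl6 and Acsl3 newly passed.

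Srebf1 was at r = 0.67 (permutation p = 0.0145, adjusted p = 0.0597) and rho = 0.82 (permutation p = 0.00181, adjusted p = 0.0199) with Fasn, and Acly at r = 0.62 and rho = 0.76 (permutation p = 0.0285 and 0.00645, adjusted p = 0.0998 and 0.0532). After the GC and length correction Srebf1 fell to r = 0.34 and rho = 0.41 (adjusted permutation p of r = 0.413). Acly fell to r = 0.49 and rho = 0.53 (adjusted permutation p of r = 0.275). Scd1, though also highly variable, did not follow Fasn (r = −0.02, rho = −0.02; permutation p of r = 0.959). It was high in Maf1-/- 4, where Fasn was lowest, and low in Maf1-/- 2, where Fasn was near its highest value. Maf1-/- 4 gave the lowest of the 12 values for 9 members, and WT 1 the highest for 9.

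**Figure D5:**
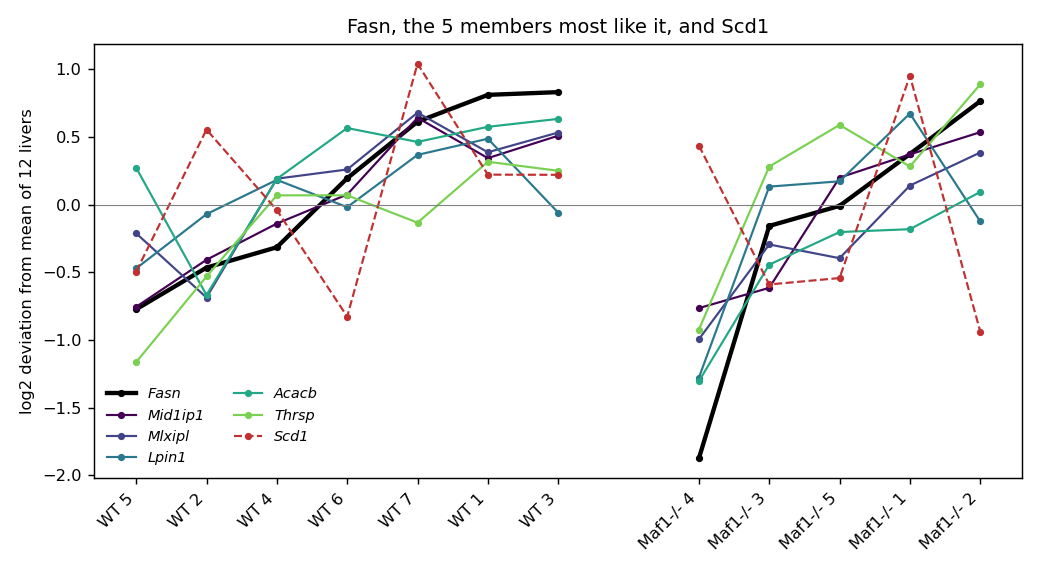
Log2 deviation from the mean of the 12 livers (y axis) for Fasn, the 5 members with the largest correlation with it, and Scd1 (dashed), with livers ordered by Fasn within WT and within Maf1-/-. The 5 members run low with Fasn in Maf1-/- 4 and high in WT 1, 3 and 7 with exceptions such as Thrsp in WT 7, whereas Scd1 peaks in WT 7 and Maf1-/- 1 and is above its mean in Maf1-/- 4.

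The rest of the pathway was read from 4 lists, in none of which a gene passed. Of 26 measured genes for other isoforms and steps of synthesis, 8 were lower and 2 higher at an unadjusted p under 0.05, with a median log2 fold change of −0.28. Gpat4, which acylates glycerol 3-phosphate at the endoplasmic reticulum, was at −0.33 ± 0.12 (SE), Acot1, a cytosolic acyl-CoA thioesterase, at −0.83 ± 0.29, and Lpin3, the third lipin, at −0.39 ± 0.14 (adjusted p = 0.192 for each). Of 33 genes acting upstream, such as insulin signalling and SREBP processing, 8 were lower and 0 higher, with a median of −0.21. The smallest p values were those of Nr0b2, the nuclear receptor SHP (−1.39 ± 0.37), Irs2, the insulin receptor substrate (−1.21 ± 0.34), and Sik1, a kinase (−0.69 ± 0.21).

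Of 31 measured genes that supply carbon and NADPH, 3 were lower and 0 higher, with a median of −0.11. They were H6pd, which makes NADPH in the endoplasmic reticulum (−0.70 ± 0.24), Mpc1, a subunit of the mitochondrial pyruvate carrier (−1.06 ± 0.44), and Pfkl, the liver phosphofructokinase (−0.58 ± 0.26). Of 16 genes of the fasting programme, which also holds Acot1 and the member Lpin1, 3 were lower and 0 higher, with a median of −0.36. Beside Acot1 these were the hormone Fgf21 (−2.0 ± 0.74) and Angptl4, an inhibitor of lipoprotein lipase (−0.80 ± 0.31). Both rest in part on Maf1-/- 4, where Fgf21 had 1 read, and without that liver they were at −1.11 and −0.46 (adjusted p = 0.364 for each). Leaving it out put Acot1 at −0.59, H6pd at −0.55, Mpc1 at −0.83, Pfkl at −0.52, Sik1 at −0.64 and Lpin3 at −0.38. Nr0b2 was then at −1.44, Irs2 at −1.38 and Gpat4 at −0.37, each further from 0. After the GC and length correction Fgf21 was at −1.72, Angptl4 at −0.74, Mpc1 at −1.09 and Nr0b2 at −1.02. With the same correction Gpat4 was at −0.17, Acot1 at −0.53, Lpin3 at −0.05, Irs2 at −0.48, Sik1 at −0.37, H6pd at −0.26 and Pfkl at −0.17. Beside these counts stand 13.2% lower and 9.9% higher over all genes. With WT 2 left out, 3 of the first list, 6 of the second and 2 of the third passed, each of them lower in Maf1-/-, and 0 of the fasting list, where 5.22% of all genes passed lower.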

How the data were processed

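Per the labels and the study's methods, reads were trimmed with cutadapt 1.8, aligned with STAR 2.5.2b to GRCm38 and counted with HTSeq 0.6.1, and the libraries were scaled by TMM. The submitters' processing notes also name RSEM 1.2.31, edgeR 3.14.0 and limma 3.28.21. The deposited log2 values carry a label reading RPKM, but all return whole reads (within 0.001) plus 0.5 over a scaled library size. They are therefore log2 CPM (counts scaled to library size), without division by gene length, which the planned test had taken for log2 RPKM. Scores of RNA polymerase III loci were not used here. The number of factors of unwanted variation that the authors used is not given in the sources used here.

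Genes were compared with limma 3.58.1 (R 4.3.3), without trend or covariates, with p adjusted by Benjamini and Hochberg over 13304 genes. The exact p of a single gene goes over 792 divisions of the libraries (two-sided; smallest p 0.00126). GC content and length were corrected for by subtracting a loess curve (span 0.4) within every library, over those 93.8% of genes that had NCBIM37 exons when joined by identifier. Levels per kb use those exon lengths. Alternatives were library weights, voom weights on the whole reads, 1 residual factor, median centring, a pseudocount of 1, a filter at a mean log2 value of 1, a replicate block and leaving out each library. The replicate block used livers 1 to 5 of each group. The members, lists and tests were chosen with earlier results of these data known. Library values are given for Fasn, Acaca, Acly, Scd1, Srebf1, the 8 members with the smallest p and the 3 with the largest spread within groups, and for other lists up to 3 genes with the smallest p. The fit was tested on simulated data. Windows before gene starts come from RefSeq (GRCm38.p6). Correlations and ratios were computed in Python 3.11.15 with scipy 1.17.1.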

Additional observations from a re-analysis of the deposited data

Results flagged for a closer look

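Over the 34 members and 2 groups, 68 sets of values were compared for a library far from the others of its group (Dixon's criterion, which chance meets in about 1 of 20 sets), and 7 met it. The library WT 2 was far below the other WT livers for Acacb at 4.37 (next lowest 5.23), for Agpat3 at 6.54 (next lowest 7.44) and for Dgat2 at 7.29 (next lowest 8.15). WT 1 was far above them for Fads2 at 8.99 (next highest 8.06) and far below them for Hsd17b12 at 6.57 (next lowest 7.25). WT 3 was far above them for Elovl3 at 7.23 (next highest 6.66). Among the Maf1-/- livers, Maf1-/- 4 was far below the others for Gpam at 7.58 (next lowest 8.25). All values are log2 CPM. The 3 members that WT 2 set apart all have a GC content above 55%, and WT 2 also had the lowest slope on GC content of the 12 libraries, −0.57. The part of that slope in the 3 values was not tested.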

How the results depend on the processing

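No member passed without a factor or weights, and none with voom weights, an intensity trend, the GC and length correction (with or without 1 factor), median centring, a pseudocount of 1 or the filter. With 1 residual factor 2 passed (Acacb, adjusted p = 0.00241, and Agpat3, adjusted p = 0.000343; limma), where 8.09% of all genes did, and with library weights 5 passed (Acacb, Agpat3, Hsd17b12 and Scd2 lower, Acsl3 higher), where 15.2% did. Leaving out each library in turn gave 0 to 1 passing members, 3 to 9 lower and 0 to 4 higher at an unadjusted p under 0.05 (6 and 1 with all 12), and medians of −0.13 to −0.0338. Over all genes those fits gave 0.015% to 6.79% passing, 6.52% to 25.8% lower and 5.59% to 17.7% higher. The higher count was 5 with median centring, library weights or the GC correction with 1 factor (14.6%, 21.0% and 15.2% of all genes were then higher), and 2 with an intensity trend, voom, 1 factor, the GC correction, a pseudocount of 1 or the filter (10.4%, 10.4%, 17.2%, 8.68%, 10.3% and 11.2%; 9.9% with none of these). The median of the members moved from −0.09 to 0.11 with the GC correction, with or without the factor. Correlations with Fasn that passed numbered 2 without WT 2 and 0 without the 2 livers farthest from its median. The cause was not tested.

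Replicate numbers are shared between the groups, and the labels do not say whether they pair the livers. Same-numbered livers had correlations of their deviations of 0.23, −0.46, −0.18, −0.03 and −0.07. These values cannot show whether such livers shared a batch. The fit with the replicate block took only livers 1 to 5 of each group, so WT 6 and WT 7 were left out. In it 0 members passed, and 2 were lower and 1 was higher at an unadjusted p under 0.05 (1.77% and 2.53% of all genes). Me1 was at 0.0131, Lpin2 at 0.00111 and Mid1ip1 at 0.0353, each on the other side of 0 from the main fit. With groups of equal size the block leaves the difference of means unchanged, so these signs go with leaving out WT 6 and WT 7. With the block and the GC correction together, Fasn was at 0.11, Elovl1 at 0.0903, Fads2 at 0.0573, Agpat2 at 0.0584, Dgat1 at 0.0990, Dgat2 at 0.0394, Srebf1 at 0.29, Mlxipl at 0.01002, Mid1ip1 at 0.32, Slc25a1 at 0.15, Tecr at 0.0534 and Hacd3 at −0.0757.

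Of 373 log2 fold changes under other settings 317 kept their sign and side of the threshold, 49 changed sign in 18 members and 7 newly passed. The intensity trend, the filter and the residual factor cannot change a log2 fold change, so no sign change was possible there. The sign changes with the GC correction are counted once without and once with the factor, though the values are the same. With the GC correction, alone or with 1 factor, the sign changed for Fasn (0.11), Elovl1 (0.12), Fads2 (0.17), Agpat2 (0.11), Dgat1 (0.17), Dgat2 (0.0171), Srebf1 (0.29), Mid1ip1 (0.24), Slc25a1 (0.23), Tecr (0.14) and Hacd3 (−0.0333). Median centring moved the median of all genes from −0.02 to 0.07 and turned Me1 to 0.0748, Elovl1 to 0.0303, Elovl2 to 0.0377, Elovl5 to 0.0237, Lpin2 to 0.0640, Mid1ip1 to 0.00680 and Acsl1 to 0.0113. Library weights turned Me1 to 0.00573, Elovl5 to 0.0488, Lpin1 to 0.0978, Lpin2 to 0.13 and Acsl1 to 0.0996. Leaving out each library in turn changed the sign of 8 members, with ranges of −0.55 to 0.11 for Fasn, −0.0895 to 0.0325 for Me1, −0.19 to 0.0461 for Fads2, −0.00265 to 0.11 for Fads1, −0.33 to 0.15 for Lpin1, −0.17 to 0.14 for Lpin2, −0.24 to 0.0847 for Mid1ip1 and −0.20 to 0.0253 for Acsl1. The settings for the named genes of the other lists were chosen after seeing the data. Depth limits chiefly Pnpla3, with 6 to 45 reads per library, and Scd2, with 201 to 483.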
